A study of Mus musculus with 37 samples.

Results

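The genes described here move calcium across the membranes of cortical cells. They are the pore, alpha2delta, beta and gamma subunits of voltage-gated calcium channels, the IP3 receptors, the Orai channels and their Stim sensors, the plasma membrane calcium pumps and the sodium-calcium exchangers. They were chosen by name, 35 genes in all, and each was read from its brightest probe set, the group of short probes that an array uses for 1 transcript. Of these, 32 had a probe set annotated with 1 gene symbol and were measured, among 18193 genes measured this way. Cacna1i, Cacnb3 and Itpr1 were not analysed here.

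Voltage-gated calcium channels open when a neuron is depolarised, and the calcium that enters triggers transmitter release, changes firing and reaches gene expression. Each channel has a pore-forming alpha1 subunit, and alpha2delta and beta subunits that bring it to the membrane and tune its gating, while most gamma subunits in brain are better known as TARPs, which carry AMPA-type glutamate receptors to synapses. Calcium is taken out again by plasma membrane pumps, which bind it tightly, and by sodium-calcium exchangers, which move more of it at a time. It is released from the endoplasmic reticulum through IP3 receptors. When that store is emptied, store-operated entry lets calcium into the cell across the plasma membrane.

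Cortical RNA of 37 mice aged 9 wk was hybridised to Affymetrix mouse genome arrays, each array holding the RNA of 1 animal. There were 10 Dble::R6/2 mice and 9 mice of each other genotype (WT, Hdac4HET and R6/2), of both sexes, on a mixed CBA and C57BL/6 background. R6/2 mice carry a transgene for the first exon of mutant human huntingtin under the human huntingtin promoter and are a model of Huntington's disease. Hdac4HET mice carry 1 null allele of Hdac4, which was made on another strain background, so that sequence of that strain remained around it, and Dble::R6/2 mice carry the transgene and the null allele. WT mice carry neither, and the R6/2 and Dble::R6/2 mice came from R6/2 males crossed to Hdac4HET females. The comparisons ask what the transgene does to these genes with 2 and with 1 working copy of Hdac4, and whether the Hdac4 copy number changes that.

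The deposited values are log2 levels, on which a difference of 1 is a doubling, and array medians lay between 6.16 and 6.21. On the arrays of the 2 genotypes with the null allele Hdac4 lay between 7.7 and 8.02, below every array without it, at 8.28 to 8.64. All 10 neuron markers were above the median level of all probe sets, 6.19, on every array, as were 31 of the 32 calcium genes. Markers of olfactory bulb stood above their highest WT level on 7 of 37 arrays, 6 of 9 Hdac4HET and 1 of 10 Dble::R6/2, and on 6 arrays, 1 WT, 3 Hdac4HET and 2 Dble::R6/2, the sex read from sex-linked genes was not the one on the label. Where leaving out either set of arrays ended a call of a calcium gene on its brightest probe set, this is said beside the gene. Less bright probe sets are given over all arrays only.

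With the R6/2 transgene more calcium genes were lower than higher, among them genes for entry and genes for removal of calcium. In R6/2 against WT cortex 4 of 32 genes passed an adjusted p of 0.05 and a change of 1.3-fold, and all 4 were lower: Cacng3, Cacna2d3, Slc8a2 and Atp2b2, an AMPA receptor partner, a calcium channel subunit, an exchanger and a pump. Over all 45037 probe sets 3.03% passed both thresholds as lower and 3.05% as higher, beside 12.5% and none of the calcium genes. Without a fold threshold 15 genes were lower and 4 higher, 46.9% and 12.5% of the calcium genes, beside 17.6% and 21.3% of all probe sets. The median change of the 32 genes was -0.114, beside -0.018 for all probe sets. The p-values come from limma over all probe sets with Benjamini-Hochberg adjustment.

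**Figure D1:**
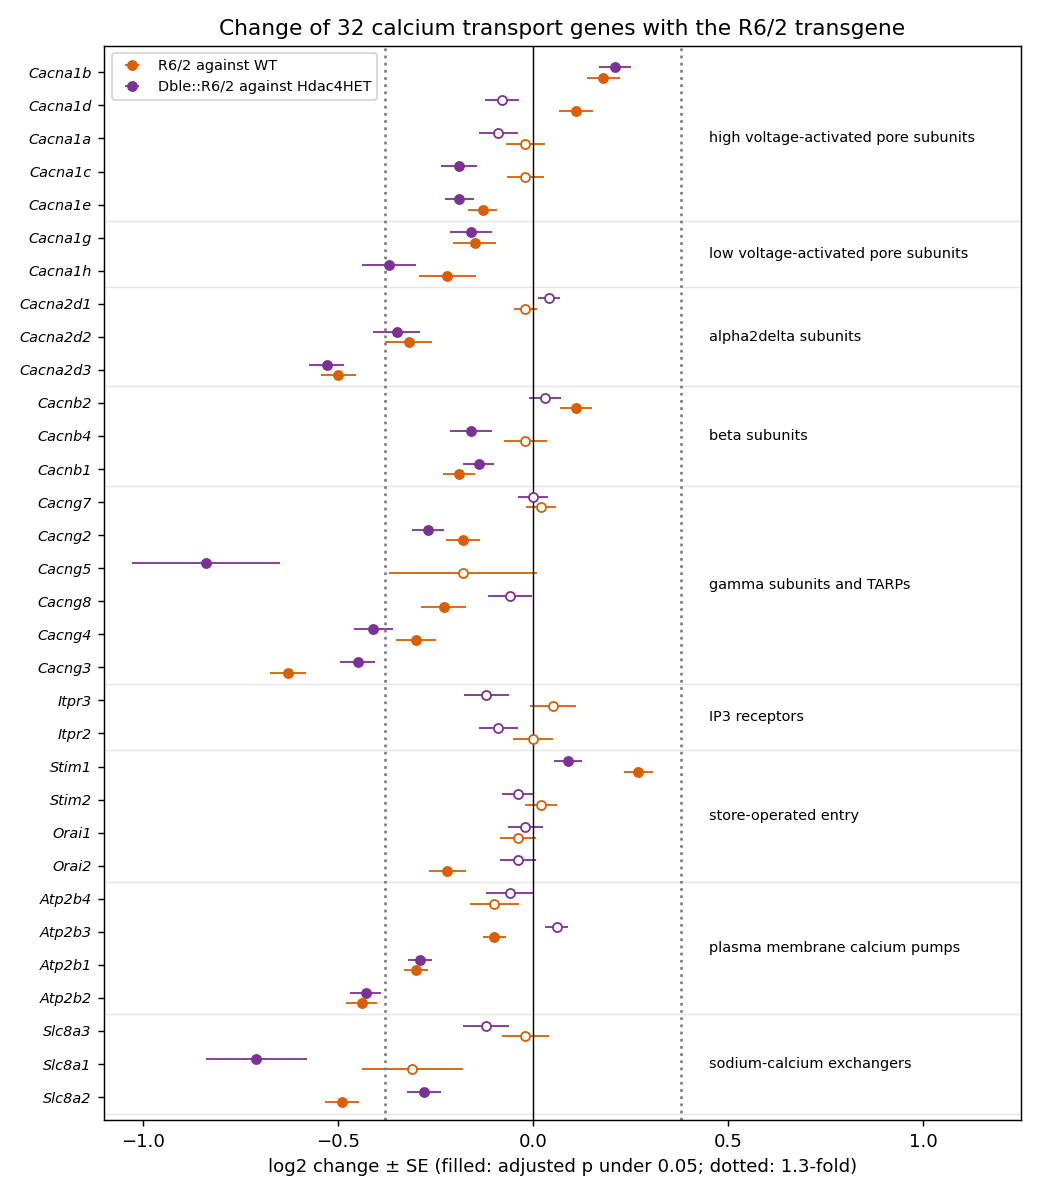
Log2 change with its standard error of each of the 32 measured genes, grouped by role, in R6/2 against WT and in Dble::R6/2 against Hdac4HET cortex. Filled points passed an adjusted p of 0.05, and the dotted lines mark 1.3-fold. Every point beyond a dotted line lies on the lower side, and the largest fall in R6/2 is that of Cacng3 at -0.63.

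The same comparison with 1 working copy of Hdac4 used other mice on both sides, and it gave a similar picture. In Dble::R6/2 against Hdac4HET cortex 6 of 32 genes passed both thresholds, all lower: Cacna2d3, Cacng3 and Atp2b2 again, with Cacng4, Cacng5 and Slc8a1. Of all probe sets 5.07% were lower and 2.02% higher by this rule. At any size 16 were lower and 2 higher, 50% and 6.25%, beside 15.6% and 21.2% of all probe sets, and the median change was -0.127. Of the 19 genes changed at any size in R6/2 and the 18 changed in Dble::R6/2, 14 were shared, 73.7% of the first and 77.8% of the second, all in the same direction, 12 lower and 2 higher. Across the 32 genes the changes of the 2 comparisons correlated at r = 0.7 and rho = 0.76, and 25 had the same sign. These values describe genes measured on the same arrays and carry no test. The same overlap and correlation over all probe sets are not given here. The agreement is therefore not shown to be particular to the calcium genes.

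Without the 7 arrays with raised bulb markers, which left 3 Hdac4HET and 9 Dble::R6/2 mice, 4 genes passed both thresholds (Atp2b2, Cacna2d3, Cacng2 and Cacng3) and 10 passed at any size, all lower. Without the 6 arrays whose sex-linked genes went against the label, 5 and 15 passed. Markers of several cell types moved with the transgene as well. Beside the counts that follow, 17.6% of all probe sets were lower and 21.3% higher at any size in R6/2 against WT. In Dble::R6/2 against Hdac4HET these shares were 15.6% and 21.2%. The mean level of 10 neuron markers lay between 12.04 and 12.16 on WT arrays and between 11.83 and 11.94 on R6/2 arrays, and between 12.09 and 12.19 in Hdac4HET and between 11.84 and 11.95 in Dble::R6/2. At any size 8 of these 10 were lower in each comparison. The mean of 8 striatum markers ran from 8.09 to 9.21 in WT, from 7.6 to 8.78 in R6/2, from 8.62 to 9.42 in Hdac4HET and from 8.0 to 8.55 in Dble::R6/2, and 6 and 7 of the 8 were lower. Astrocyte markers, 12 in number, had means of 10.59 to 10.68 in WT and 10.31 to 10.47 in R6/2, with 9 of 12 lower at any size, and 8 of 11 oligodendrocyte and 6 of 11 microglia markers were lower too. Of 9 endothelial markers none was lower and 3 were higher in R6/2, too few to read a direction from. None of the 9 was called in Dble::R6/2 against Hdac4HET. None of 7 choroid plexus markers was called by limma in either comparison. The part of these markers in the changes of the calcium genes was not tested, and in whole cortex fewer cells of a type and less RNA per cell cannot be told apart.

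Among the gamma subunits and TARPs, Cacng3 had the largest change in R6/2 against WT, and Cacng5 had the largest in Dble::R6/2 against Hdac4HET. Cacng3, a TARP of cortical excitatory neurons, had log2 levels of 9.41, 9.76 and 9.87 (lowest, median and highest) on the WT arrays, 9.57, 9.67 and 9.86 in Hdac4HET, 9.02, 9.04 and 9.19 in R6/2 and 9.11, 9.24 and 9.38 in Dble::R6/2. No array with the transgene reached the lowest array of its control group. In R6/2 the level was 64.6% of WT, a log2 change of -0.63 ± 0.046 (SE, n = 9 and 9, limma adjusted p = 7.12e-14). In Dble::R6/2 it was 73.4% of Hdac4HET, a change of -0.45 ± 0.045 (n = 10 and 9, limma adjusted p = 2.43e-10). Dble::R6/2 lay 0.16 ± 0.045 above R6/2, at a limma adjusted p of 0.0555, which missed the threshold in the fit used here and passed it under several alternatives given in the closing section.

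Groups that do not overlap were seen for 6 lower genes and 1 higher gene in R6/2 against WT, 18.8% and 3.12% of the 32, beside 2.73% and 5.63% of all probe sets. In Dble::R6/2 against Hdac4HET 9 lower genes and none higher did not overlap, 28.1% of the 32, beside 3.55% and 5.77% of all probe sets.

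Cacng2, also called stargazin, is the founding TARP. It lay at 9.85, 10.0 and 10.06 in WT, 9.87, 10.0 and 10.27 in Hdac4HET, 9.6, 9.83 and 9.89 in R6/2 and 9.64, 9.76 and 9.89 in Dble::R6/2. The ranges overlapped, with 6 of 9 R6/2 arrays below every WT array and 9 of 10 Dble::R6/2 arrays below every Hdac4HET array. Cacng2 fell by 0.18 ± 0.043 in R6/2 (limma adjusted p = 0.000809) and by 0.27 ± 0.042 in Dble::R6/2 (limma adjusted p = 2.59e-06), on all 3 of its probe sets in both comparisons. For Cacng4, a TARP found in neurons and glia, the levels were 9.01, 9.09 and 9.23 in WT, 9.01, 9.3 and 9.41 in Hdac4HET, 8.6, 8.85 and 8.91 in R6/2 and 8.74, 8.82 and 8.97 in Dble::R6/2. Neither transgene group overlapped its control. Its change was -0.3 ± 0.051 in R6/2 and -0.41 ± 0.05 in Dble::R6/2, and the second was -0.22, under the fold threshold, without the arrays with raised bulb markers. Without the arrays whose sex-linked genes went against the label the second no longer passed the fold threshold either, and was still called at any size.

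Cacng8 fell by 0.23 ± 0.057 in R6/2 (limma adjusted p = 0.00155) on its brighter probe set, while its second probe set was higher by 0.65, so the direction depends on the probe set. On its brightest probe set Cacng7 passed in neither comparison, with limma adjusted p values of 0.676 and 0.966. Its less bright probe set differed by -0.06 in R6/2 (limma adjusted p = 0.455) and was higher by 0.15 in Dble::R6/2 (limma adjusted p = 0.047).

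The gene with the widest spread was Cacng5, a gamma subunit that also acts as a TARP. Its levels were 7.0, 7.38 and 7.52 in WT, 7.28, 8.11 and 9.01 in Hdac4HET, 6.78, 7.11 and 7.54 in R6/2 and 6.9, 7.24 and 8.19 in Dble::R6/2. The Hdac4HET arrays fell in 2 sets. The 6 with raised bulb markers lay between 7.92 and 9.01, and the other 3 lay between 7.28 and 7.4, within the WT range. Over all arrays Cacng5 was higher in Hdac4HET than in WT by 0.86 ± 0.19 (limma adjusted p = 0.0168) and lower in Dble::R6/2 than in Hdac4HET (-0.84 ± 0.19, limma adjusted p = 0.000392). Without the arrays with raised bulb markers these changes were 0.03 (limma adjusted p = 0.977) and -0.09 (limma adjusted p = 0.709). The change between Hdac4HET and WT was also not called without the arrays whose sex-linked genes went against the label. Within genotypes Cacng5 followed the mean of the 16 bulb markers at r = 0.92 and rho = 0.8 over 37 arrays, a description of arrays of which the same few are high in both. Its less bright probe set differed by -0.06 between Hdac4HET and WT (limma adjusted p = 0.638).

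**Figure D2:**
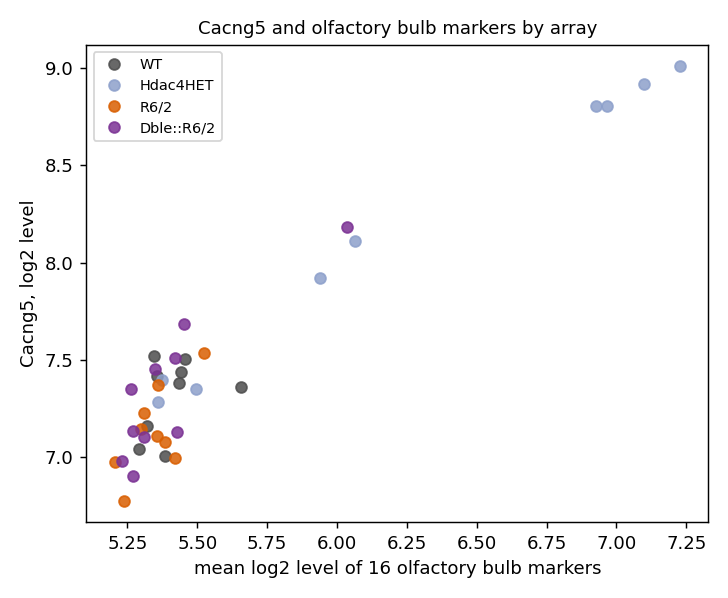
Log2 level of Cacng5 on each array against the mean log2 level of 16 olfactory bulb markers, coloured by genotype. The arrays with high Cacng5 are those with high bulb markers, 6 of them Hdac4HET and 1 Dble::R6/2.

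The alpha2delta subunits raise the number of channels at the membrane, and Cacna2d1 and Cacna2d2 bind gabapentin. Cacna2d3 lay at 10.29, 10.34 and 10.49 in WT, 10.18, 10.42 and 10.54 in Hdac4HET, 9.72, 9.86 and 10.01 in R6/2 and 9.73, 9.83 and 9.99 in Dble::R6/2. Both transgene groups were wholly below their controls and almost on top of each other. Cacna2d3 was at 70.6% of WT in R6/2 (-0.5 ± 0.045, limma adjusted p = 1.73e-11) and at 69.3% of Hdac4HET in Dble::R6/2 (-0.53 ± 0.044, limma adjusted p = 2.36e-12). It has 1 probe set, so there is no second reading.

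Cacna2d2 lay at 8.91, 9.11 and 9.4 in WT, 9.17, 9.25 and 9.38 in Hdac4HET, 8.54, 8.85 and 9.08 in R6/2 and 8.62, 8.92 and 9.06 in Dble::R6/2. The R6/2 range overlapped WT and the Dble::R6/2 range did not overlap Hdac4HET. The changes were -0.32 ± 0.061 (limma adjusted p = 5.18e-05) and -0.35 ± 0.06 (limma adjusted p = 8.37e-06), both under the fold threshold. In contrast Cacna2d1 lay at 11.37, 11.46 and 11.56 in WT, 11.32, 11.41 and 11.51 in Hdac4HET, 11.31, 11.46 and 11.56 in R6/2 and 11.38, 11.45 and 11.51 in Dble::R6/2. Its brightest probe set differed by -0.02 ± 0.029 in R6/2 (limma adjusted p = 0.637), while 2 of its other 4 probe sets were lower, one with a change of -0.61.

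Of the pore subunits that open at strong depolarisation, Cacna1b forms the N-type channel of nerve terminals, Cacna1a the P/Q-type, Cacna1c and Cacna1d the L-type and Cacna1e the R-type channel. Cacna1b lay at 10.04, 10.11 and 10.23 in WT, 9.86, 10.03 and 10.22 in Hdac4HET, 10.12, 10.31 and 10.4 in R6/2 and 10.12, 10.22 and 10.35 in Dble::R6/2. It was higher with the transgene in both comparisons, by 0.18 ± 0.042 (limma adjusted p = 0.00074) and 0.21 ± 0.041 (limma adjusted p = 8.24e-05), with overlapping ranges. Without the arrays with raised bulb markers the second change was 0.12 (limma adjusted p = 0.0899), and with the mean of its 4 probe sets the first was 0.08 (limma adjusted p = 0.0751).

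Cacna1e lay at 10.35, 10.53 and 10.61 in WT, 10.36, 10.4 and 10.58 in Hdac4HET, 10.19, 10.35 and 10.45 in R6/2 and 10.17, 10.25 and 10.28 in Dble::R6/2. It fell by 0.13 ± 0.038 in R6/2 (limma adjusted p = 0.00758) and by 0.19 ± 0.037 in Dble::R6/2 (limma adjusted p = 5.74e-05), where the groups did not overlap. With the mean of both probe sets, 1 of them dim, the second change was -0.04 (limma adjusted p = 0.525). Cacna1d was higher in R6/2 by 0.11 (limma adjusted p = 0.04), and Cacna1c fell by 0.19 in Dble::R6/2 (limma adjusted p = 0.00108) and differed by -0.02 in R6/2 (limma adjusted p = 0.781). Without the arrays with raised bulb markers the change of Cacna1c in Dble::R6/2 was -0.11 (limma adjusted p = 0.311). The less bright probe set of Cacna1c was higher by 0.23 in R6/2 (limma adjusted p = 0.000286). It differed by 0.01 in Dble::R6/2 (limma adjusted p = 0.918), so the reading of Cacna1c depends on the probe set. The Cacna1d call was lost without the arrays against the labelled sex (limma adjusted p = 0.0571), and with quantile normalization the change was 0.06 (limma adjusted p = 0.256). On its brightest probe set Cacna1a passed in neither comparison, with limma adjusted p values of 0.804 and 0.145. Another of its probe sets was higher by 0.26 in R6/2 (limma adjusted p = 0.000215) and differed by 0.13 in Dble::R6/2 (limma adjusted p = 0.0564).

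The T-type pores open at weak depolarisation and shape burst firing. Cacna1g lay at 8.51, 8.64 and 8.87 in WT, 8.49, 8.61 and 8.77 in Hdac4HET, 8.19, 8.56 and 8.7 in R6/2 and 8.36, 8.44 and 8.57 in Dble::R6/2. The ranges overlapped, and the changes were -0.15 ± 0.055 (limma adjusted p = 0.0317) and -0.16 ± 0.054 (limma adjusted p = 0.0207). The first was lost with any 1 of 7 arrays left out. Without the arrays against the labelled sex both Cacna1g calls were lost (limma adjusted p = 0.0823 and 0.0708), and without those with raised bulb markers the second was lost too (-0.22, limma adjusted p = 0.0523). Cacna1h changed by -0.22 and -0.37 (limma adjusted p = 0.0139 and 5.48e-05), while its dim second probe set was higher by 0.31 and 0.44. Without the arrays with raised bulb markers the second change of Cacna1h was -0.23 (limma adjusted p = 0.111).

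The beta subunits hold the pore at the membrane. Cacnb1 lay at 8.85, 9.01 and 9.21 in WT, 8.9, 9.04 and 9.14 in Hdac4HET, 8.74, 8.79 and 8.91 in R6/2 and 8.82, 8.89 and 9.04 in Dble::R6/2. The ranges overlapped while the medians of both transgene groups were below those of their controls, and the changes were -0.19 ± 0.041 (limma adjusted p = 0.000236) and -0.14 ± 0.04 (limma adjusted p = 0.00586). Of its 4 probe sets 3 were lower in R6/2, one with a change of -0.61. Cacnb4, whose loss causes the lethargic phenotype in mice, lay at 11.4, 11.49 and 11.83 in WT, 11.41, 11.59 and 11.72 in Hdac4HET, 11.29, 11.53 and 11.78 in R6/2 and 11.24, 11.44 and 11.52 in Dble::R6/2. It fell by 0.16 ± 0.054 in Dble::R6/2 (limma adjusted p = 0.0189) and differed by -0.02 ± 0.056 in R6/2 (limma adjusted p = 0.803). The Cacnb4 call on this probe set was lost without the arrays with raised bulb markers (-0.13, limma adjusted p = 0.299) and without those against the labelled sex (-0.16, limma adjusted p = 0.0764). Over all arrays its 3 probe sets were all called lower in Dble::R6/2, the least bright by 0.77 (limma adjusted p = 2.43e-06). None of the 3 was called in R6/2. Cacnb2 was higher in R6/2 by 0.11 (limma adjusted p = 0.0366), a call that was lost without the arrays with raised bulb markers (limma adjusted p = 0.0565) and without those against the labelled sex (limma adjusted p = 0.0609). With quantile normalization it was 0.06 (limma adjusted p = 0.233). The less bright probe set of Cacnb2 was higher by 0.26 in R6/2 (limma adjusted p = 3.5e-05) and differed by 0.06 in Dble::R6/2 (limma adjusted p = 0.303).

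Calcium is pumped out of the cell by Atp2b1 to Atp2b4, of which Atp2b2 is the fast isoform that is lost in deafwaddler mice. Atp2b2 lay at 12.13, 12.24 and 12.38 in WT, 12.11, 12.29 and 12.45 in Hdac4HET, 11.69, 11.78 and 11.93 in R6/2 and 11.8, 11.86 and 11.92 in Dble::R6/2. Both transgene groups were wholly below their controls. Atp2b2 was at 73.6% of WT in R6/2 (-0.44 ± 0.04, limma adjusted p = 2.37e-11) and at 74.3% of Hdac4HET in Dble::R6/2 (-0.43 ± 0.039, limma adjusted p = 2.76e-11). Its other probe sets changed by -0.75 and -0.62 in R6/2 and by -0.87 and -0.6 in Dble::R6/2, so that all 3 passed both thresholds in both comparisons.

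Atp2b1, the widely expressed pump, lay at 12.03, 12.08 and 12.18 in WT, 12.01, 12.14 and 12.19 in Hdac4HET, 11.7, 11.81 and 11.91 in R6/2 and 11.71, 11.86 and 11.95 in Dble::R6/2. Again no transgene array reached the control range. The changes of -0.3 ± 0.031 (limma adjusted p = 6.57e-10) and -0.29 ± 0.031 (limma adjusted p = 5.97e-10) were under the fold threshold on the brightest probe set, and both other probe sets of Atp2b1 passed it in both comparisons, with changes of -0.54 and -0.42 in R6/2. On its brightest probe set Atp2b3 fell by 0.1 in R6/2 (limma adjusted p = 0.0118) and differed by 0.06 in Dble::R6/2 (limma adjusted p = 0.133). Its less bright probe set was higher by 0.23 in R6/2 (limma adjusted p = 0.000571). In Dble::R6/2 that probe set was higher by 0.4 (limma adjusted p = 6.21e-08), past both thresholds. Atp2b4 passed in neither comparison.

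The sodium-calcium exchangers Slc8a1, Slc8a2 and Slc8a3 encode NCX1, NCX2 and NCX3, of which NCX2 is the form most restricted to brain. Slc8a2 lay at 7.41, 7.57 and 7.8 in WT, 7.38, 7.44 and 7.58 in Hdac4HET, 6.95, 7.09 and 7.24 in R6/2 and 7.04, 7.2 and 7.37 in Dble::R6/2. Neither transgene group overlapped its control, though in Dble::R6/2 the edges lay 0.01 apart. Slc8a2 was at 71.3% of WT in R6/2 (-0.49 ± 0.044, limma adjusted p = 1.55e-11) and at 82.4% of Hdac4HET in Dble::R6/2 (-0.28 ± 0.043, limma adjusted p = 1.41e-06). Its second probe set fell by 0.26 in R6/2. The difference between the 2 changes, 0.21 ± 0.061, had a limma adjusted p of 0.0683.

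Slc8a1 lay at 8.73, 9.73 and 10.05 in WT, 9.33, 9.75 and 9.95 in Hdac4HET, 9.04, 9.32 and 9.82 in R6/2 and 8.36, 9.07 and 9.32 in Dble::R6/2. In Dble::R6/2 the highest array lay 0.01 below the lowest Hdac4HET array, while 1 WT array lay far below the other 8. The change was -0.31 ± 0.13 in R6/2 (limma adjusted p = 0.0595) and -0.71 ± 0.13 in Dble::R6/2 (limma adjusted p = 2.49e-05). Without WT replicate 8 the first was -0.43 (limma adjusted p = 0.00282), and without the arrays with raised bulb markers the second was -0.47 (limma adjusted p = 0.0813). None of the other 3 probe sets of Slc8a1 was called lower in either comparison, and 1 was called higher in each, by 0.13 in R6/2 and, on a dim one, by 0.2 in Dble::R6/2. With the mean of all 4 the second change was -0.09 (limma adjusted p = 0.0606). Slc8a3 passed in neither, with limma adjusted p values of 0.815 and 0.119.

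**Figure D3:**
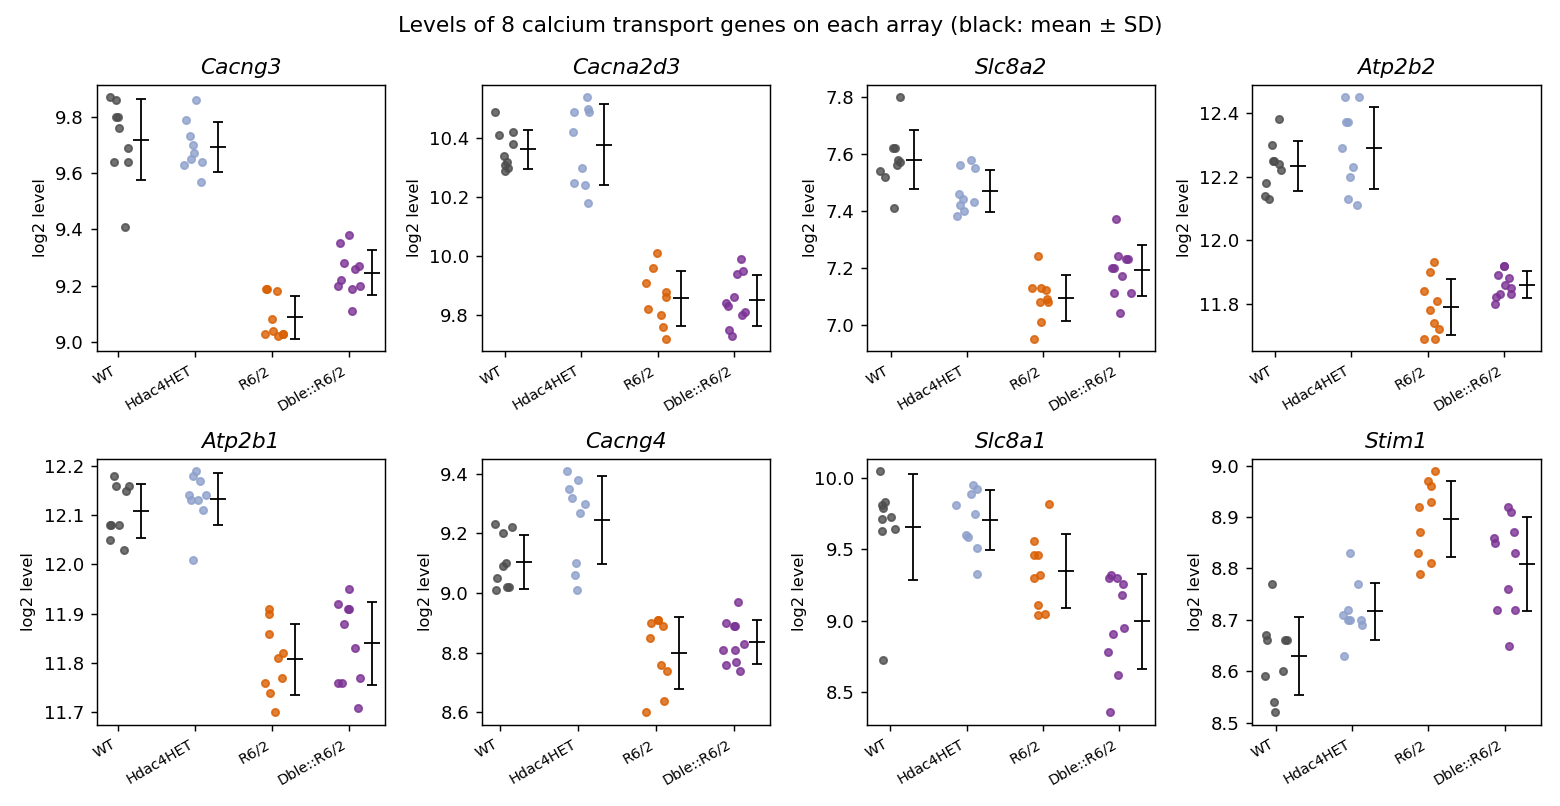
Log2 level of 8 genes on each array by genotype, with the mean and SD in black. In Cacng3, Cacna2d3, Slc8a2, Atp2b2, Atp2b1 and Cacng4 every array with the transgene lies below every array of its control group, and in Stim1 every R6/2 array lies above every WT array.

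Store-operated entry begins when Stim1 or Stim2 senses an emptied endoplasmic reticulum and opens an Orai channel. Stim1 lay at 8.52, 8.66 and 8.77 in WT, 8.63, 8.7 and 8.83 in Hdac4HET, 8.79, 8.92 and 8.99 in R6/2 and 8.65, 8.84 and 8.92 in Dble::R6/2. Every R6/2 array was above every WT array, and the Dble::R6/2 and Hdac4HET ranges overlapped. Stim1 rose to 120.0% of WT in R6/2 (0.27 ± 0.037, limma adjusted p = 2.01e-07) and by 0.09 ± 0.036 in Dble::R6/2 (limma adjusted p = 0.0405). The second was lost without any 1 of 13 arrays and without the arrays with raised bulb markers (0.14, limma adjusted p = 0.0664) or those against the labelled sex (limma adjusted p = 0.127). The difference between the 2 changes was -0.17 ± 0.051 with a limma adjusted p of 0.0676. A second Stim1 probe set differed by -0.05 in R6/2 (limma adjusted p = 0.273).

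Orai2 lay at 8.34, 8.43 and 8.56 in WT, 8.2, 8.31 and 8.5 in Hdac4HET, 8.1, 8.18 and 8.37 in R6/2 and 8.1, 8.27 and 8.52 in Dble::R6/2. It fell by 0.22 ± 0.048 in R6/2 (limma adjusted p = 0.000338), on both of its probe sets, and differed by -0.04 ± 0.046 in Dble::R6/2 (limma adjusted p = 0.514). Stim2 lay at 9.67, 9.83 and 10.08 in WT, 9.73, 9.79 and 9.94 in Hdac4HET, 9.73, 9.88 and 9.98 in R6/2 and 9.7, 9.76 and 9.89 in Dble::R6/2. Its ranges overlapped throughout, and neither Stim2 nor Orai1 passed on the brightest probe set. The less bright probe set of Stim2 changed by -0.29 in R6/2 (limma adjusted p = 0.000378) and by -0.22 in Dble::R6/2 (limma adjusted p = 0.00501). That of Orai1, a dim one, differed by 0.09 in R6/2 (limma adjusted p = 0.173) and was higher by 0.19 in Dble::R6/2 (limma adjusted p = 0.00197).

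IP3 receptors release calcium from the endoplasmic reticulum, and Itpr2 and Itpr3 passed in neither comparison. Itpr2 lay at 7.16, 7.47 and 7.56 in WT, 7.3, 7.42 and 7.65 in Hdac4HET, 7.33, 7.42 and 7.49 in R6/2 and 7.15, 7.37 and 7.48 in Dble::R6/2, and none of its 6 probe sets passed.

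The 32 genes had 79 probe sets, and 27 genes had more than 1. In R6/2 against WT 4 genes had probe sets that passed in opposite directions (Cacng8, Cacna1h, Atp2b3 and Cacna1d), and in Dble::R6/2 against Hdac4HET 2 had (Cacna1h and Slc8a1). In R6/2 against WT, for Atp2b1, Atp2b2, Cacng2, Cacng4, Orai2 and Slc8a2, every probe set was lower. With the mean of all probe sets of a gene, the called changes in R6/2 of Cacng8, Cacna1h, Atp2b3 and Cacna1d turned direction, to 0.21, 0.05, 0.07 and -0.01, as did that of Cacna1h in Dble::R6/2, to 0.04. By that reading Cacna2d2 changed by -0.15 in R6/2 and -0.12 in Dble::R6/2, Stim1 by 0.11 in R6/2, and Cacng5 by -0.35 in Dble::R6/2. Cacna1c and Stim1 were not called in Dble::R6/2 by it (limma adjusted p = 0.0811 and 0.174).

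**Figure D4:**
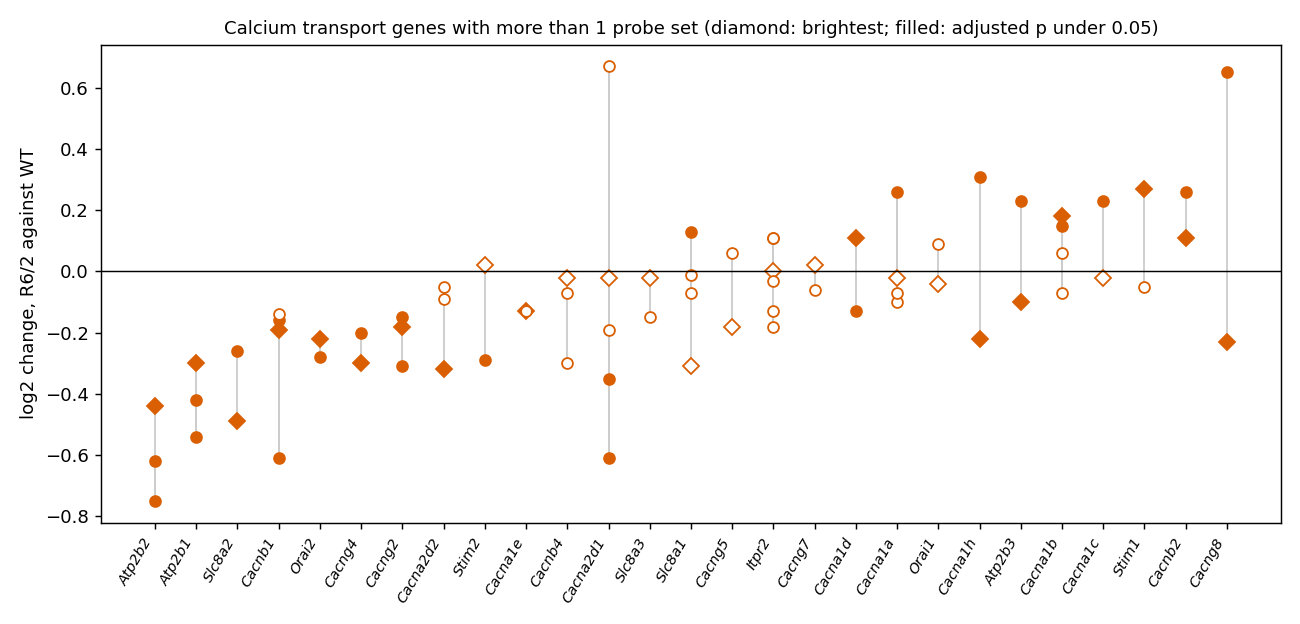
Log2 change in R6/2 against WT of each probe set of the 27 genes with more than 1. Diamonds mark the brightest probe set and filled symbols an adjusted p under 0.05. All probe sets of Atp2b2 and Atp2b1 lie below 0, while those of Cacng8 lie on both sides.

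On the brightest probe sets no calcium gene passed the test for an effect of reduced Hdac4 in R6/2 cortex. The less bright probe set of Cacng7 did pass at any size, with a change of 0.26 ± 0.061 (limma adjusted p = 0.0235). In Dble::R6/2 against R6/2 limma called 0 of 32 brightest probe sets by either rule, beside 0.269% and 1.99% of all probe sets. The methods' t-test called 0 too. At an unadjusted limma p under 0.05 there were 8. The share of all probe sets by that rule is not given here, so no result is read from this count. The 4 genes past both thresholds in R6/2 differed by 0.16 ± 0.045 (Cacng3), 0.1 ± 0.043 (Slc8a2), 0.07 ± 0.039 (Atp2b2) and -0.01 ± 0.044 (Cacna2d3). Without the transgene, Hdac4HET against WT, Cacng5 was the 1 gene of 32 past both thresholds and higher, beside 0.275% of all probe sets. It was not called without the arrays with raised bulb markers or without those against the labelled sex. At any size Cacng5 and Cacna1d were higher, beside 0.948%, and Atp2b3 was lower, beside 0.48%. The less bright probe set of Cacna1c was also higher, by 0.21 (limma adjusted p = 0.0269), a value over all arrays that is not given without either set of arrays. Cacna1d was higher by 0.17 ± 0.044 (limma adjusted p = 0.0369) and Atp2b3 fell by 0.12 ± 0.03 (limma adjusted p = 0.0339), and neither was called without the arrays with raised bulb markers or without those against the labelled sex.

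The interaction asks whether the change with the transgene differs with the Hdac4 copy number. On the brightest probe sets limma called 0 of 32 by either rule, beside 0.251% and 0.968% of all probe sets. With array weights 4 passed at any size. At an unadjusted limma p under 0.05 there were 11, again without the share of all probe sets, and no result is read from this count. A dim probe set of Slc8a1 had an interaction of 0.27 (limma adjusted p = 0.0407). On the brightest probe sets the lowest limma adjusted p values were those of Atp2b3 (0.0579), Stim1 (0.0676) and Slc8a2 (0.0683). By these probe sets a gene past the threshold in only 1 of the transgene comparisons is not shown to differ between them.

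The promoters of Slc8a2, Cacna2d3 and Atp2b2, all past both thresholds in R6/2, with that of Stim1, the 1 gene whose R6/2 arrays all lay above WT, are given because these genes carry the result. Each is 300 bases of the mouse genome from RefSeq (GRCm38.p6), 250 before and 50 after the start of the gene, written 5′ to 3′ on the gene's own strand, with GC boxes in capitals. A GC box is GGGCGG or its reverse complement CCGCCC, the core that SP1-family factors bind. Atp2b2 has 3 starts and the most upstream one is shown.
Slc8a2, chr7:16129576-16129875, plus strand: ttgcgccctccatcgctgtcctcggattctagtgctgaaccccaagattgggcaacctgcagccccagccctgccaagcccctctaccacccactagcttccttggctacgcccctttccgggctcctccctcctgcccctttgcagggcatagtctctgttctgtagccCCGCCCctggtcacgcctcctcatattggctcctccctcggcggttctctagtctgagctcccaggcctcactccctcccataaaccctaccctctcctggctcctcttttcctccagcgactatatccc
Cacna2d3, chr14:29721815-29722114, minus strand: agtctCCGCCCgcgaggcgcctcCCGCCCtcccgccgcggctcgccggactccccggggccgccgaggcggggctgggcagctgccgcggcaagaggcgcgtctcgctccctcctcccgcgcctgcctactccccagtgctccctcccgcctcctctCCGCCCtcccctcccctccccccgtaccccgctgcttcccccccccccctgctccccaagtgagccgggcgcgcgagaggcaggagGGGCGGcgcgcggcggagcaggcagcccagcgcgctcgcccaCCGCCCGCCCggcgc
Atp2b2, chr6:114042031-114042330, minus strand: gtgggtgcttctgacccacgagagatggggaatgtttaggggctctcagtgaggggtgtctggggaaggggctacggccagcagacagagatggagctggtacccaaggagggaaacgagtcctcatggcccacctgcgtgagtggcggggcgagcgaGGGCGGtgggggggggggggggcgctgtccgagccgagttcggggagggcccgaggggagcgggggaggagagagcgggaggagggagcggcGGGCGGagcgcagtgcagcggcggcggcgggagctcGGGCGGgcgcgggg
Stim1, chr7:102267569-102267868, plus strand: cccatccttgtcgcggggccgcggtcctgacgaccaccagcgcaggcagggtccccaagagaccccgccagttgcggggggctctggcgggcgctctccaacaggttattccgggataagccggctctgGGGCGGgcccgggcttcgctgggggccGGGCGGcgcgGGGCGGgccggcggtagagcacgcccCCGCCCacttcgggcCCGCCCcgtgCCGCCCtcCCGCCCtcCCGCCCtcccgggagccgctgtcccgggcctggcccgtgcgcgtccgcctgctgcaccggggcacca

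The Slc8a2 window held 1 GC box, Atp2b2 held 3, Cacna2d3 held 6 and Stim1 held 8, and in Cacna2d3 neighbouring matches overlapped. Of all 32851 promoters in the table, 35.7% held at least 1. Among the 38 starts of the 27 measured calcium genes with an entry, 22 held one (57.9%). The cAMP response element TGACGTCA was in none of the 4 windows and in 1.79% of all promoters, and the TATA box TATAAA, on either strand, was in none of the 4 and in 13.6% of all. A match describes letters and not a site.

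Related genes that handle the same calcium were taken from 12 lists, 99 genes of which 89 were measured. In R6/2 against WT 12 passed both thresholds, all lower, beside 3.03% lower and 3.05% higher for all probe sets. At any size 40 were lower and 15 higher, beside 17.6% and 21.3%. In Dble::R6/2 against Hdac4HET 11 were lower and 1 higher past both thresholds, beside 5.07% and 2.02%, and 37 were lower and 15 higher at any size, beside 15.6% and 21.2%. The counts of single lists below stand beside these same shares.

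Release from the endoplasmic reticulum held the largest change. Ryr1, the skeletal type ryanodine receptor that some neurons also use, had a log2 change of -1.38 in R6/2 (limma adjusted p = 1.95e-15) and of -1.6 in Dble::R6/2 (limma adjusted p = 1.93e-17). Jph4, a junctophilin that ties the endoplasmic reticulum to the plasma membrane, changed by -0.43 and -0.4, and 4 of 11 genes of that list were lower and 1 higher in R6/2. Itpka, the kinase that phosphorylates IP3 in dendritic spines, changed by -1.01 and -0.82, with 6 of 15 genes of its list lower and 3 higher in R6/2. The higher count is near the 21.3% of all probe sets.

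At the plasma membrane the potassium-dependent exchangers Slc24a4 and Slc24a2 changed by -0.54 and -0.42 in R6/2, and the other 2 measured were not called. Trpc6 fell by 0.58, Trpc1 and Trpc4 were higher by 0.25 and 0.28, and Orai3 fell by 0.41.

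Among calcium sensors 9 of 13 were lower and 1 higher in R6/2, and 4 passed both thresholds, Hpcal1 (-0.62), Hpca (-0.5), Cabp1 (-0.49) and Cabp7 (-0.39). The presynaptic partners of the channels, which hold channels near vesicles, were lower in 7 of 9 cases and higher in none, Rims1 (-0.44) past both thresholds, and in 8 of 9 in Dble::R6/2.

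The remaining lists had no gene past both thresholds in R6/2. Of 8 mitochondrial calcium transport genes 3 were higher in R6/2 and none lower, beside 21.3% higher and 17.6% lower of all probe sets. The list is too short to read a direction from these counts. Among the higher ones were Mcu, the pore of the uniporter, by 0.13, and Micu2 by 0.21. Of the secretory pathway genes Tmem165 and Atp2c1 were higher by 0.31 and 0.13, and Tmem165 passed both thresholds in Dble::R6/2 at 0.42. The SERCA pump Atp2a2 fell by 0.27 in both comparisons, with 3 of 5 genes of its list lower in R6/2.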

How the data were processed

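Cortex RNA of 37 mice was measured on 1 array each, and genotypes came from the titles. A series-wide table of log2 levels was deposited, after the authors had checked array quality with RACE. How probes were summarised and normalized is not stated by the sources at hand. The values were used as deposited, and the number of arrays limits their precision. The paper's methods left out arrays of low quality that they do not name, so all 37 were used. Of 45037 probe sets, 34945 had 1 gene symbol, and each gene was read from its brightest one, so that a larger change on a dimmer probe set was not counted. A linear model of the 4 genotypes was fitted with limma 3.58.1 in R 4.3.3 (lmFit, eBayes with a trend), and p-values were adjusted over all probe sets with Benjamini-Hochberg. A gene was called past both thresholds at an adjusted p under 0.05 with a change over 1.3-fold, and at any size without the fold. Values were named for genes past both thresholds in any comparison, up to 12 with the lowest p in R6/2 against WT and the brightest of each subfamily, 20 in all. Members and lists were chosen with earlier results of these data known. The fit was tested on simulated data. Alternatives were another normalization, other models, probe set filters, the replicate number as a block, and arrays left out. A promoter sequence of 1 further gene is not reported here. Figures were drawn with matplotlib 3.10.9.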

Additional observations from a re-analysis of the deposited data

Results flagged for a closer look

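In 80 groups (20 genes with values in 4 genotypes) 5 arrays stood apart from the rest of their genotype by a gap that is a large share of the range, and chance flags about 1 group in 20. The clearest was Slc8a1 in WT replicate 8, at 8.73 with the next array at 9.63. Without that array the R6/2 change of Slc8a1 was -0.43 (limma adjusted p = 0.00282) rather than -0.31 (limma adjusted p = 0.0595). Cacng3 in WT replicate 7 was at 9.41 with the next at 9.64, and its R6/2 change stayed between -0.67 and -0.61 with any 1 array left out. Atp2b1 in Hdac4HET replicate 1 was at 12.01 with the next at 12.11. Cacna2d2 in Dble::R6/2 replicate 4 was at 8.62 with the next at 8.84. Cacnb4 in WT replicate 4 was high, at 11.83, with the next at 11.62.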

How the results depend on the processing

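For R6/2 against WT, 4 genes passed both thresholds under each of 11 alternatives and 4 to 5 with 1 array left out, the fifth being Slc8a1 without WT replicate 8. With the mean of all probe sets Atp2b1 took the place of Slc8a2. At any size 16 to 20 passed. For Dble::R6/2 against Hdac4HET, 4 to 6 passed both thresholds (6 to 7 with 1 array left out), and at any size 18 became 10 without the arrays with raised bulb markers, which leaves fewer arrays. The 1 gene past both thresholds and the 3 at any size in Hdac4HET against WT became 0 and 0 with only the genotypes compared, with the methods' t-test, without the arrays with raised bulb markers and without those against the labelled sex, and 1 to 3 at any size with 1 array left out. For Dble::R6/2 against R6/2, 0 at any size became 1 (Cacng3) with only the genotypes compared and with array weights, 1 (Cacng7) with the mean of all probe sets, 2 (Cacng3 and Cacng8) among probe sets above the median level, and 0 to 1 with 1 array left out. For the interaction, 0 became 2 with quantile normalization, 4 with array weights, 1 among probe sets above the median level, and 0 to 2 with 1 array left out, the 2 being Cacng3 and Slc8a2 without WT replicate 7. Only the genotypes compared and the methods' t-test were not run for the interaction. The causes were not tested. Of the 30 called changes of genes whose levels are given by genotype, no alternative reversed a direction, while 4 other genes turned with the mean of all probe sets (Cacng8, Cacna1h, Atp2b3 and Cacna1d), and 38 refits ended a call, 20 of them by leaving out 1 array.

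Replicate numbers were shared by all genotypes and did not pair the mice. Over 54 pairs with the same number the deviations correlated at a mean of 0.00741, and 3 of 37 arrays correlated best with their own number. With the replicate number as a block 4 genes passed both thresholds in R6/2 against WT and 6 in Dble::R6/2 against Hdac4HET, as without it.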

Other observations

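A few probe sets of calcium genes above the median level spread far more within genotypes than the rest. The within-genotype SD was 0.432 for a less bright probe set of Cacna2d1, 0.312 for one of Atp2b2, 0.3 for the brightest of Slc8a1, 0.282 for one of Cacnb4 and 0.236 for one of Atp2b1, beside a median of 0.106. After the genotype means were taken out, the probe sets of Atp2b2 and Cacnb4 moved together at r = 0.87 and rho = 0.88 over 37 arrays, those of Slc8a1 and Cacnb4 at r = 0.76 and rho = 0.78, and those of Slc8a1 and Atp2b2 at r = 0.62 and rho = 0.68. These pairs were noticed in the data, share their arrays, and are given without a test. The brightest probe sets of Atp2b2, Atp2b1 and Cacnb4 were not among the wide ones, and in R6/2 against WT the changes of Atp2b2 and Atp2b1 on them were smaller in size than on the wide ones, -0.44 beside -0.75 and -0.3 beside -0.54.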
